A study of Mus musculus with 6 samples.

Results

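The miRNAs of sham-operated mouse brain were described at baseline from 3 small RNA libraries, which are 3 of the 6 samples of the series. They are named sham libraries 3, 6 and 7 here, after their labels. All 3 came from C57BL/6J brain, an inbred strain of laboratory mouse, and their treatment is given as none; the series' design text calls the group a sham operation. The other 3 libraries came from the same strain after ligation of both carotid arteries for 20 min and were not analysed here. The age and sex of the mice, the brain region, and whether each library came from its own animal are not stated. Values across the 3 libraries therefore show the spread between these samples, which may be technical. All 727 rows of each table were read; 50 mature miRNAs are listed on more than 1 row, and each of these was read from its row of highest total, which left 622 names.

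A miRNA is cut from a hairpin precursor. The 5′ side of the hairpin gives the 5p arm and the 3′ side gives the 3p arm, and usually 1 of them is loaded into an Argonaute protein and kept while the other is degraded. The loaded strand finds messenger RNAs mainly through its seed, here bases 2 to 8, so that miRNAs of the same seed form a family with shared predicted targets. In brain, miR-124 and miR-9 are known from neurons and their precursors, miR-7 from neurosecretory cells and as the miRNA that binds the circular RNA Cdr1as, and the miRNAs of an imprinted region of chromosome 12 from neurons.

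The mature sequences below carry most of the counts in these libraries. They are shown 5′ to 3′ with the seed in capitals, as given by RefSeq for assembly GRCm38.p6. The miR-7, miR-26 and miR-30 families come first, because these 3 seeds led the libraries, and their members differ outside the seed.
miR-7a-5p: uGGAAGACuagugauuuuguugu
miR-7b-5p: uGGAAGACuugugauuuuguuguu
miR-26a-5p: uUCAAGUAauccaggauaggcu
miR-26b-5p: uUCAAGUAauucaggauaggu
miR-30a-5p: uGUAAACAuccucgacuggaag
miR-30c-5p: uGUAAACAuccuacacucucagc
miR-30e-5p: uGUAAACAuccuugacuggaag

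Over the bases they share, miR-7a-5p and miR-7b-5p differ at 1 base, miR-26a-5p and miR-26b-5p at 2, and miR-30a-5p and miR-30e-5p at 1. The next pair, miR-101a-3p and miR-101b-3p, shows how a shifted end changes a seed. The listed miR-101b-3p starts 1 base earlier, and once its first base is skipped it differs from miR-101a-3p at 1 of 18 bases, yet the capitals differ.
miR-101a-3p: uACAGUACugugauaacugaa
miR-101b-3p: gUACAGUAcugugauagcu

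The 4 most abundant let-7 members with a sequence are shown with miR-379-5p and miR-1839-5p, because these 3 seeds overlap in steps of 1 base. The let-7 seed shifted by 1 base is that of miR-1839-5p, and shifted again it is that of miR-379-5p.
let-7i-5p: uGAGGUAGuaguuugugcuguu
let-7f-5p: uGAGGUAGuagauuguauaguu
let-7c-5p: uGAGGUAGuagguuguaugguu
let-7g-5p: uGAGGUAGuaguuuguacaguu
miR-1839-5p: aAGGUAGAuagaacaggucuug
miR-379-5p: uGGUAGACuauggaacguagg

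The last set holds both arms of 3 hairpins that gave more than 1000 CPM from each side, miR-9, miR-127 and miR-136.
miR-9-5p: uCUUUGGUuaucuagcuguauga
miR-9-3p: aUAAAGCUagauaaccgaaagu
miR-127-5p: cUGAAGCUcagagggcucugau
miR-127-3p: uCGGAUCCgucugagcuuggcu
miR-136-5p: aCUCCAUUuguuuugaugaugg
miR-136-3p: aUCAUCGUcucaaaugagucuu

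Sham libraries 3, 6 and 7 held 1644332, 1423906 and 1750612 counts over the 622 names. Counts were scaled to CPM, the counts that a library of 1000000 would hold, so that a name without a count could hold up to 1.71 to 2.11 CPM, the level of 3 counts. Each library had a count for 607 to 610 names; 588 names were above 0 in all 3 libraries and 34 were at 0 in 1 or 2 of them. The median ratio of a library to the mean of the other libraries lay between 0.977 and 1.01 over the 213 names of at least 100 CPM. Library 3 stood apart for 6 of these 213 names, which were more than 1.5-fold lower there than in the mean of the others: miR-182-5p, miR-183-5p, miR-200a-3p, miR-200b-3p, miR-200c-3p and miR-429-3p. A single name, miR-206-3p, was more than 1.5-fold higher in library 3. Library 7 differed by more than 1.5-fold for more names, 7 higher and 5 lower, and library 6 for 2 higher and 2 lower. The 7 names higher in library 7 were miR-182-5p, miR-183-5p, miR-200a-3p, miR-200b-3p, miR-200c-3p, miR-382-3p and miR-411-5p. Adapter ligation in small RNA library kits favours some ends over others, so a ratio between different miRNAs is a ratio of counts and not of molecules.

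Few miRNAs made up most of the sham brain library. The 5 most abundant names took 47.2% to 51.3% of the counts, the 10 most abundant 64.3% ± 0.907 (SD, n = 3), and the 50 most abundant 90.5% to 90.8%. Between 5 and 6 names were enough for 50% of the counts, 47 to 48 for 90% and 191 to 196 for 99%. At the other end, 219 of the 622 names averaged under 10 CPM.

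miR-7a-5p, miR-26a-5p and miR-30a-5p were the 3 most abundant miRNAs, and each of them ranked first in a different library. miR-7a-5p was at 133578, 113239 and 110664 CPM in libraries 3, 6 and 7 (mean 119161 ± 12552, SD, n = 3). miR-26a-5p, a miRNA found in most tissues, was at 97611, 134453 and 116188 CPM (116084 ± 18421). miR-30a-5p was at 103313, 86508 and 123595 CPM (104472 ± 18570). The ranges of miR-7a-5p and miR-26a-5p overlapped, as did those of miR-26a-5p and miR-30a-5p, so their order was not separated by the spread between libraries.

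miR-101a-3p and miR-9-5p followed at 80753 ± 5578 and 70458 ± 9933 CPM (SD, n = 3). miR-101a-3p read 86095, 74965 and 81199 CPM in libraries 3, 6 and 7. miR-9-5p, a regulator of neural progenitors, read 67303, 62486 and 81585 CPM. The lowest library of miR-30a-5p was above the highest of miR-101a-3p, whereas the ranges of miR-101a-3p and miR-9-5p overlapped. After them came a step down: miR-143-3p, known from vascular smooth muscle, was at 41238, 47237 and 30850 CPM (39775 ± 8291), below miR-9-5p in every library.

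The next names were within a narrow band. miR-101b-3p was at 40529, 37647 and 37954 CPM (38710 ± 1583, SD, n = 3), and its range overlapped that of miR-143-3p. miR-7b-5p was at 29900, 27584 and 25891 CPM (27792 ± 2013), apart from both of its neighbours. let-7i-5p at 23086 ± 1212 CPM and miR-379-5p, from the chromosome 12 region, at 22829 ± 2716 CPM could not be ordered. miR-124-3p, the most neuron-restricted of the abundant brain miRNAs, came 11th with 20212, 19928 and 15334 CPM. miR-193b-3p, the miRNA named in the series' title, was at 74.2, 87.8 and 61.7 CPM in libraries 3, 6 and 7. By mean CPM it lay between miR-96-5p at rank 231 and miR-135b-5p at rank 242 of the 622 names.

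**Figure D1:**
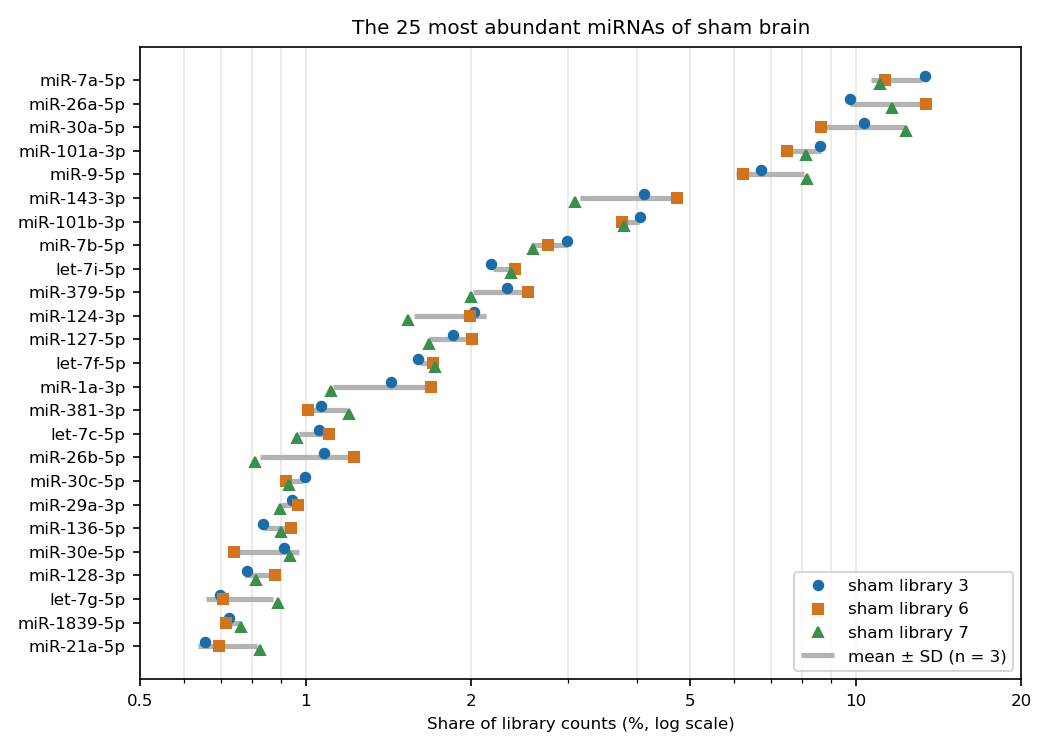
The 25 most abundant miRNAs of sham brain as a share of library counts in percent on a log axis, with 1 symbol per library and a grey bar for the mean ± SD of 3 libraries. The first 3 names overlap and change places between libraries, and the step from miR-9-5p to miR-143-3p is clear of the spread.

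These shares depend on how repeated rows are read. The 2 rows of miR-7a-5p held 219588 and 219647 counts in library 3, and those of miR-26a-5p 160503 and 160505; each pair matches the 2 hairpins that carry the same mature sequence. Of the 50 names with repeated rows, 24 had identical rows in all 3 libraries and 41 had rows within 5% in all 3. miR-9-5p has 3 rows of nearly equal counts, so summing rows instead of keeping the highest moved it from 7.05% to 14.0% of the counts. The same change moved miR-7a-5p from 11.9% to 15.8% and miR-30a-5p, listed on a single row, from 10.4% to 6.94%. The rows of miR-92a-3p were less alike, with 121 and 299 counts in library 3.

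The main names lie at scattered loci of GRCm38. miR-7a-5p is encoded at chr13:58392779-58392886 on the minus strand, in an intron of Hnrnpk, and at chr7:78888277-78888373, where no other GENCODE vM21 gene overlaps. miR-26a-5p is encoded at chr10:126995530-126995613 in an exon of Ctdsp2 and at chr9:119031796-119031885 in an intron of its paralog Ctdspl, both of which encode small phosphatases of the RNA polymerase II tail. miR-30a-5p lies at chr1:23272269-23272339 outside any other annotated gene. miR-101a-3p lies at chr4:101346945-101347027 in an exon of the long non-coding RNA E130102H24Rik, and miR-101b-3p at chr19:29135279-29135375 in an intron of Rcl1. miR-9 has 3 loci, at chr3:88215598-88215686, chr13:83738814-83738885 and chr7:79505264-79505353, and the counts do not say which of them is read.

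Grouped by seed, the counts were also held by few entries. Of the 622 names, 519 had a RefSeq sequence, and they fell into 433 seeds, of which 380 held a single name. The 103 names without a sequence, miR-143-3p, miR-124-3p and miR-1a-3p among them, took 9.52% of the counts and belong to no family here. The shares and the order of families therefore cover only names with a sequence. The 10 most abundant families took 71.0% ± 1.36 of all counts (SD, n = 3), above the 64.3% of the 10 most abundant names, and the first 3 took 39.6% ± 0.638. That sum of 3 varied less between libraries than any of its parts.

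The miR-7 family took 16.3%, 14.1% and 13.7% of counts in libraries 3, 6 and 7 (14.7% ± 1.45, SD, n = 3). miR-7a-5p gave 81.1% of it, and its ratio to miR-7b-5p was 4.47, 4.11 and 4.27 in the 3 libraries. The miR-26 family took 10.8%, 14.7% and 12.4% (12.6% ± 1.92), with 91.8% from miR-26a-5p. Its 2 members did not move together: the ratio of miR-26a-5p to miR-26b-5p was 9.04, 11.0 and 14.4. The miR-30 family took 12.3%, 10.4% and 14.3% (12.3% ± 1.96), with 84.9% from miR-30a-5p, and the rest from miR-30c-5p, miR-30e-5p and miR-384-5p. miR-30b-5p at 3771 CPM and miR-30d-5p at 4726 CPM have no sequence here and are named only. The miR-30 share, and its place against the miR-26 family, are thus given without them. The miR-7 family was highest in library 3, miR-26 in library 6 and miR-30 in library 7.

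The let-7 family, which holds back growth and stem cell programs in many animals, was the broadest, and of the 10 leading families it had the lowest coefficient of variation between libraries, 3.84%. Its 10 names took 6.30%, 6.77% and 6.70% of counts (6.59% ± 0.253, SD, n = 3). let-7i-5p gave 35.0% of the family, let-7f-5p 25.4%, let-7c-5p 15.8% and let-7g-5p 11.6%, whereas let-7a-5p gave 4.02%. The ratio of let-7i-5p to let-7a-5p was 8.17, 8.68 and 9.32 in libraries 3, 6 and 7. let-7f-5p and let-7c-5p each differ from let-7a-5p at 1 of 22 bases, so how the authors' alignment treats mismatches could shift reads among them.

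The other leading seeds were mostly held by 1 name. The miR-101a-3p seed took 8.08% ± 0.558, the miR-9-5p seed 7.05% ± 0.993, the miR-101b-3p seed 3.87% ± 0.158, the miR-379-5p seed 2.28% ± 0.272 and the miR-127-5p seed 1.84% ± 0.166 (SD, n = 3). The pair of miR-101 names kept a steady ratio of 2.12, 1.99 and 2.14 in libraries 3, 6 and 7, although their listed seeds differ. Their sequences differ at 1 of 18 compared bases, and the part of alignment in this ratio was not tested. The miR-29 family, known for targeting collagens, took 1.68% ± 0.0697. Its internal split was nearly the same in each library: miR-29a-3p gave 55.6%, 55.6% and 56.0% of it, miR-29b-3p 33.1%, 33.2% and 32.5%, and miR-29c-3p 11.3%, 11.2% and 11.5%.

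**Figure D2:**
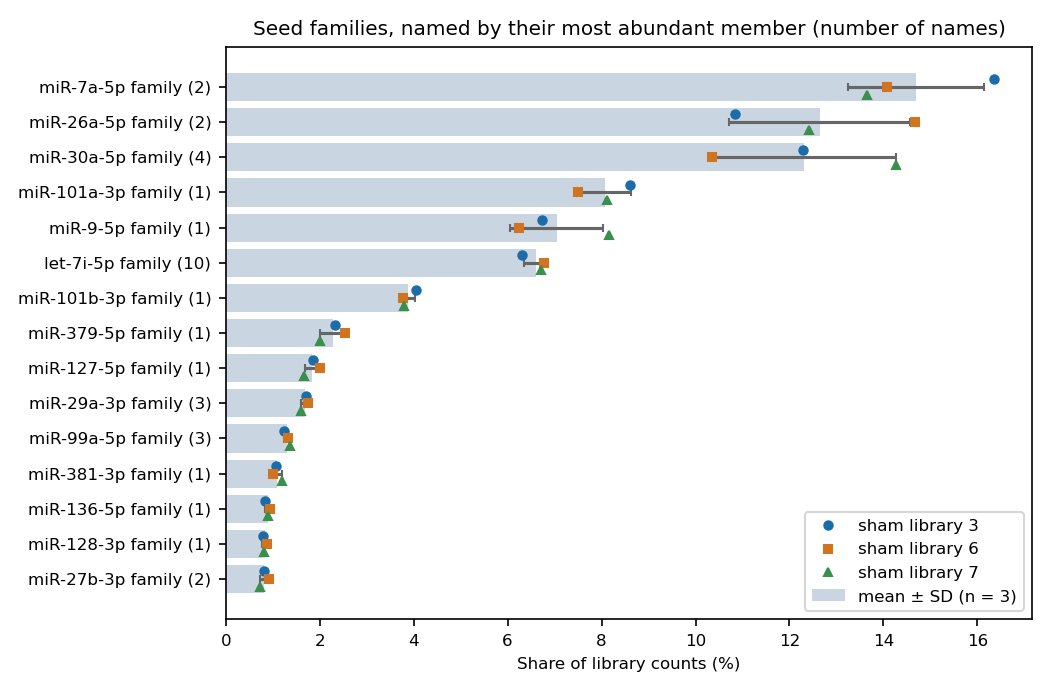
Share of library counts in percent for the 15 most abundant seed families of names with a sequence. Families carry the name of their most abundant member, with the number of names in brackets. Bars are means with SD over 3 libraries and symbols are libraries. The miR-7, miR-26 and miR-30 families lead, each highest in a different library, and the let-7 family of 10 names varies little.

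Most counts, but not most names, began with U, a base that the seed does not include. U was the first base of 216 of the 519 names with a sequence, or 41.6%, but of 84.3% ± 0.371 of their counts (SD, n = 3). The 5 most abundant names all begin with U and weigh heavily in that share, while miR-101b-3p, miR-127-5p, miR-136-5p and miR-1839-5p begin with other bases. Among names of at least 100 CPM, 102 of 186 began with U, against 114 of 333 below that level. By arm, U began 89.9% of 5p counts and 69.7% of 3p counts. G began 16.7% of 3p counts but only 7.91% of the 3p names, and nearly all of those counts are miR-101b-3p. First bases are those of the RefSeq sequences, not of the reads. Weighted by counts, GC content was 40.1% to 40.4% in the 3 libraries, against 48.6% over the names without weights. Argonaute proteins are known to prefer a 5′ U, and adapter ligation also depends on the end base; the part of either in these values was not tested.

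5p arms held 66.7%, 66.8% and 69.2% of the counts in libraries 3, 6 and 7 (67.6% ± 1.43, SD, n = 3). 3p arms held 31.9% ± 1.43, and names without an arm label 0.468%. By number of names the order was the other way, with 270 names from 5p arms and 301 from 3p arms. The majority of 5p counts rested on a few names: without the 5 most abundant, 4 of which are 5p arms, the 5p share was 52.2%.

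Within hairpins, most of the counts came from 1 arm. Both arms were listed for 196 hairpin names, and a further 165 had only 1 arm listed. Loci that differ only by a locus number count once. Their names were summed within an arm, as were miR-7a-1-3p and miR-7a-2-3p. The more abundant arm held 96.8% ± 0.126 (SD, n = 3) of the counts of the hairpins with both. The 184 with at least 10 counts over both arms in every library were tested with edgeR's quasi-likelihood test, 5p against 3p, with the library as a block. Of these, 170 differed at a Benjamini-Hochberg adjusted p under 0.05, which is 92.4% of those tested. The 5p arm was higher in 93 (50.5%) and the 3p arm in 77 (41.8%). The median ratio between arms was 13.6-fold in either direction; it was at least 100-fold in 40 hairpins and under 2-fold in 26. The same arm was higher in all 3 libraries in 173 of the 184.

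The strongest 3p preference was that of miR-101a, whose 5p arm had 4, 9 and 3 counts in libraries 3, 6 and 7 against 141569, 106743 and 142148 from the 3p arm. The fitted log2 ratio of 5p over 3p was −14.53 ± 0.24 (SE), with an adjusted p of 2.11e-193 in edgeR's quasi-likelihood test. The size of that p depended on the model and the libraries. In the same test it was 3.7e-16 without the library block. Leaving out library 3, 6 or 7 gave an adjusted p of 2.53e-88, 2.4e-116 or 2.84e-06. Without library 3, 6 or 7 the ratio was −14.30, −15.26 or −14.19. The SE was derived from the test's F statistic and can be too small for an arm with so few counts. The 5p arm made up 0.0041% of the counts of this hairpin over the 3 libraries (95% Wilson interval 0.00252% to 0.00666%). miR-381 followed with a log2 ratio of −12.46 ± 0.24, then miR-143 with −12.30 ± 0.22, miR-341 with −10.79 ± 0.27 and miR-27b with −10.72 ± 0.23. In each of these 5 hairpins the 5p arm averaged under 10 CPM. miR-381 and miR-341 lie in the chromosome 12 region, and miR-27b is one of the miRNAs used here to mark astrocytes.

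The 5 hairpins with the largest 5p preference were miR-21a, miR-26a, miR-100, miR-7a and let-7i. miR-21a, a miRNA known from glia and injury, had 7260 ± 890 CPM from the 5p arm and 2.30 ± 1.26 from the 3p arm (SD, n = 3). Its log2 ratio was 11.59 ± 0.24 (SE), again an SE that can be too small where 1 arm has few counts. miR-26a reached 11.43 ± 0.20, miR-100 10.90 ± 0.25, miR-7a 10.38 ± 0.19 and let-7i 9.94 ± 0.19. The order at the top was not fixed. With repeated rows summed, the ratio of miR-26a was 12.43 and that of miR-7a 11.38, since only their 5p names are repeated, and miR-26a then stood above miR-21a. Without library 7 miR-26a was at 11.35 and miR-21a at 11.13, without library 6 miR-100 was at 11.58 and miR-21a at 11.57, and without library 3 miR-21a was at 12.17. The minor arm of miR-7a, with miR-7a-1-3p and miR-7a-2-3p summed, was at 89.2 ± 5.49 CPM. let-7i had the steadiest ratio of the 135 tested hairpins of at least 100 CPM: its 3p arm had 37, 35 and 41 counts against 35693, 34147 and 41261 from the 5p arm. Over those 135 hairpins the log2 ratio had a median range of 0.53 between libraries, and in the widest case, miR-466i, the 3p arm had 5, 0 and 9 counts.

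A few hairpins gave near equal arms. miR-376b had a log2 ratio of −0.07 ± 0.15 (SE), with 326 ± 52.0 CPM from the 5p and 341 ± 58.3 CPM from the 3p arm (SD, n = 3); the adjusted p in edgeR's quasi-likelihood test was 0.668 and the 95% interval of the log2 ratio ran from −0.37 to 0.23. miR-3068 was at −0.09 ± 0.17, miR-361 at 0.12 ± 0.18, miR-376a at 0.18 ± 0.19 and miR-770 at 0.33 ± 0.23, none of them called. The sign of the first 3 changed when a library was left out. miR-376a, miR-376b and miR-770 lie in the chromosome 12 region.

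5 hairpins held more than 1000 CPM in both arms: miR-9, miR-30a, miR-30e, miR-127 and miR-136. This set was picked with the values in view. miR-127 gave 30412, 28543 and 29280 counts from its 5p arm and 5638, 5603 and 6916 from its 3p arm, a ratio of 5.39, 5.09 and 4.23 in libraries 3, 6 and 7. The 5p arm of miR-127 was higher in every library, with a log2 ratio of 2.29 ± 0.13 (SE). miR-136 had 8915 ± 522 CPM from 5p and 4717 ± 522 from 3p (SD, n = 3), a ratio of 1.89, 2.12 and 1.69. For miR-9 the arms did not vary alike: miR-9-3p was at 3156, 3108 and 3141 CPM in the same libraries in which miR-9-5p ran from 62486 to 81585, so that the ratio was 21.3, 20.1 and 26.0. The ratio of miR-30a-5p to miR-30a-3p was 26.4, 21.0 and 24.7.

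**Figure D3:**
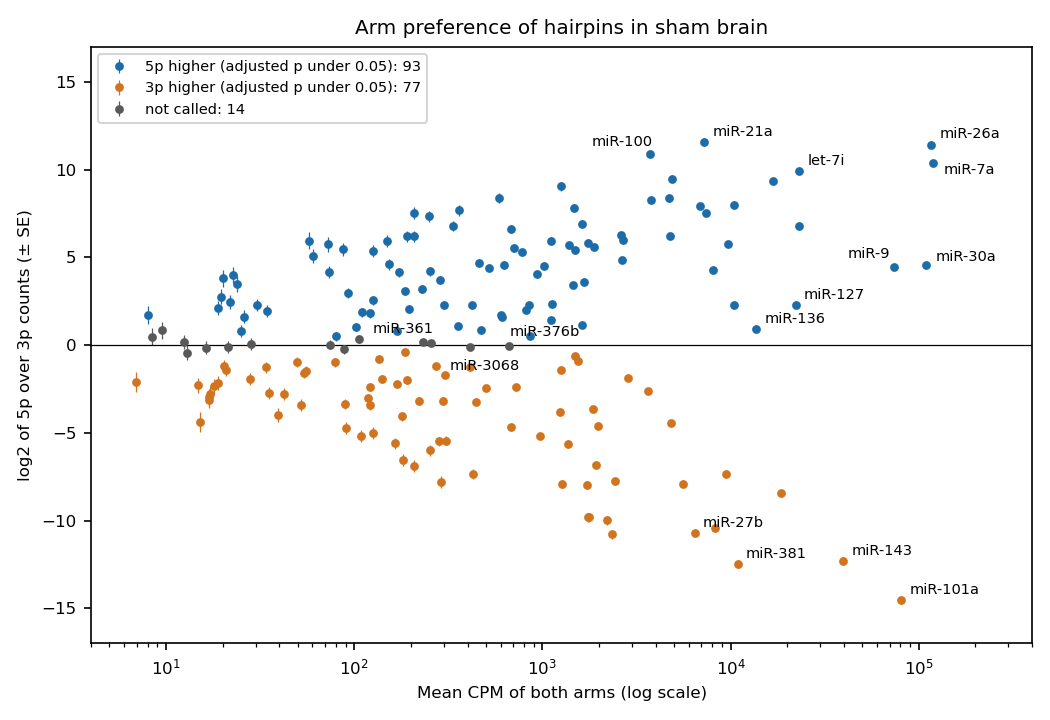
Log2 ratio of 5p over 3p counts (± SE from the edgeR fit) against the mean CPM of both arms on a log axis for the 184 hairpins tested; blue and orange are called for 5p (93) and 3p (77), grey is not called (14). The fitted ratio is −14.53 for miR-101a, 11.59 for miR-21a and 11.43 for miR-26a, of which miR-26a is the higher with repeated rows summed or without library 7, while miR-376b, miR-3068 and miR-361 sit near 0.

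The preferred arm differed from its partner in its first base. In 114 hairpins with a sequence for both arms, the more abundant arm began with U in 65 and the less abundant in 21, while C began 11 and 43 of them. Some names could not be told apart by their counts: miR-199a-3p and miR-199b-3p held the same 189, 154 and 190 counts, and miR-467a-5p and miR-467b-5p the same 147, 131 and 136.

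The imprinted region of chromosome 12 holds many miRNA hairpins close together. It is expressed from the maternal chromosome together with the long RNA Meg3, and from Mir770 to Mir410 it spans chr12:109563692-109743795 on the plus strand of GRCm38. Its 53 hairpins gave 79 listed names, 61 of them at 10 CPM or more and 34 at 100 CPM or more. Together they took 8.57%, 9.02% and 8.39% of the counts in libraries 3, 6 and 7 (8.66% ± 0.326, SD, n = 3). miR-379-5p, miR-127-5p and miR-381-3p, at 22829, 18422 and 10915 CPM, were its most abundant names. Mir127, at chr12:109592846-109592915, lies opposite an exon of Rtl1, a gene expressed from the paternal chromosome. Of its 34 tested hairpins, 12 had arms within 2-fold and 6 were not called, with a median ratio of 3.69-fold; among the 150 other hairpins 14 were within 2-fold, 8 were not called and the median was 19.1-fold. This difference was not tested.

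Neighbouring hairpins are often cut from the same transcript, but their counts were far from equal. miR-143-3p was 143-fold, 182-fold and 124-fold above miR-145a-5p, its partner in 1 smooth muscle transcript. miR-1a-3p, a muscle miRNA, was at 14316, 16925 and 11109 CPM and its partner miR-133a-3p at 58.4, 82.2 and 40.6 CPM, a ratio of 206 to 274. The ratio of miR-106b-5p to miR-93-5p, whose hairpins share an intron of Mcm7, was 4.51, 4.30 and 4.39. The first member of each pair was the higher in all 3 libraries, and the part of ligation or alignment in it was not tested.

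Lists of miRNAs known from particular cells were read as a check of the tissue. Fewer cells of a type and less RNA per cell cannot be told apart in such bulk samples. All 17 members of the neuron list were present, with a summed level of 118026, 113331 and 125070 CPM in libraries 3, 6 and 7. That is 11.9% ± 0.591 of the counts (SD, n = 3), most of it miR-9-5p and miR-124-3p. miR-9-5p gave 59.3% of the sum and was the only member highest in library 7. Of the others, 11 were highest in library 3 and 5 in library 6. Members at intermediate levels were miR-128-3p at 8246 ± 497 CPM, miR-218-5p at 4856 ± 181, miR-132-3p at 4619 ± 631 and miR-137-3p at 1597 ± 61.8. The astrocyte list of 8, led by miR-29a-3p and miR-27b-3p, summed to 29411, 30935 and 27225 CPM. The oligodendrocyte list of 5 summed to 1208, 1237 and 1141 CPM, with miR-219a-2-3p at 607 ± 57.3 and miR-338-3p at 168 ± 9.58. The sums of these 3 lists differed by at most 1.14-fold between libraries, whereas some members differed by more.

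Blood, vessel and ventricle miRNAs were also present. The erythrocyte list summed to 561, 556 and 483 CPM, with miR-451a at 304 ± 31.1 (SD, n = 3). Of the leukocyte and microglia list, summing to 3791, 3700 and 3049 CPM, miR-146a-5p gave 87.1%, while miR-223-3p of granulocytes was at 21.9, 14.7 and 6.85 CPM. The vessel wall list summed to 45018, 51145 and 34948 CPM, of which miR-143-3p gave 91.0%; endothelial miR-126a-3p was at 3126 ± 216. The choroid plexus and ependyma list summed to 3837, 3237 and 3802 CPM, led by miR-34c-5p at 1452 ± 176 and miR-1298-5p at 1328 ± 100.1. The liver list of 3 summed to 847, 798 and 1112 CPM in libraries 3, 6 and 7, of which miR-192-5p gave 89.3%. Within that list miR-194-5p was at 85.2 ± 5.89 CPM and miR-122-5p, the main liver miRNA, at 13.2 ± 4.25. Of 5 miRNAs from Hox loci, miR-10a-5p and miR-10b-5p were listed, at 133 ± 3.03 and 136 ± 33.3 CPM.

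The epithelial and sensory lists varied most between the libraries. The epithelium list summed to 695, 2431 and 3479 CPM in libraries 3, 6 and 7, a 5.01-fold range. miR-200a-3p was at 366, 1460 and 2200 CPM, miR-200b-3p at 128, 442 and 631, and miR-141-3p at 23.1, 94.8 and 145. All 3 were lowest in library 3 and highest in library 7. Skin-associated miR-203-3p stayed at 49.9, 49.2 and 64.0 CPM, and miR-205-5p had 4, 0 and 1 counts. The sensory list, the cluster of miR-183, miR-96 and miR-182 known from retina, ear and olfactory neurons, summed to 1364, 2858 and 3724 CPM. miR-182-5p was at 830, 1867 and 2447 CPM in libraries 3, 6 and 7.

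**Figure D4:**
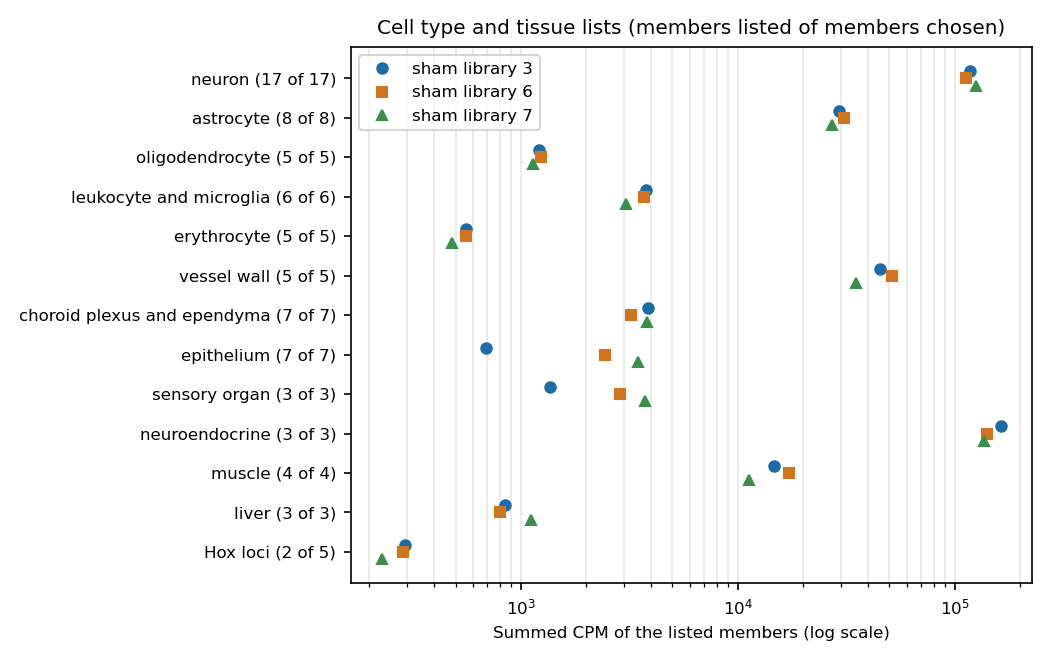
Summed CPM on a log axis of 13 lists of cell type and tissue miRNAs in each sham library, with the number of members listed of those chosen. The neuron list sits between 113331 and 125070 CPM, while the epithelium list runs from 695 to 3479 CPM.

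The spread of all names, these included, was small for most but above counting error. Over the 403 names of at least 10 CPM the median coefficient of variation (SD over mean, CV) was 12.03%, against 7.53% from counting error alone, and over the 213 names of at least 100 CPM it was 9.02% against 3.53%. Between 10 and 100 CPM the CV was 16.8% against 15.0% from counting, so most of the spread there is of the size that counting gives. Among the 17 names of at least 10000 CPM it was 10.5% against 0.522%, and all 17 were above 2 times their counting error. Of the 213 names, 134 had a CV above 2 times their counting error. Among the same 213, 22 had a highest library more than 1.5-fold above the lowest, 8 more than 2-fold and 4 more than 3-fold.

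The 5 most variable names of at least 100 CPM were miR-200a-3p with a CV of 68.8%, miR-200b-3p with 63.4%, miR-200c-3p with 58.6%, miR-429-3p with 52.2% and miR-182-5p with 47.8%. The first 4 form the epithelial miR-200 family together with miR-141, and all 5 were lowest in library 3. Others varied without that order: miR-328-3p was at 1174, 1419 and 552 CPM in libraries 3, 6 and 7, and miR-206-3p, from skeletal muscle, at 229, 142 and 110. Of the muscle list of 4, miR-1a-3p, miR-133a-3p and miR-133b-3p were highest in library 6 and lowest in library 7, as was miR-143-3p. In the vessel wall list of 5, only miR-143-3p had that order. Of its other members, 3 were highest in library 3 and 1 in library 7. The order of highest in library 6 and lowest in library 7 was shared by 45 of the 213 names of at least 100 CPM. miR-133a-3p and miR-133b-3p are below that level.

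The steadiest names were miR-9-3p with a CV of 0.784%, miR-186-5p with 0.942%, miR-23a-3p with 1.09%, miR-93-5p with 1.16% and miR-106b-5p with 1.24%. Each of these CVs is below the counting error of the same name, which was 1.41% for miR-9-3p and 5.02% for miR-93-5p, and 27 of the 213 names were below theirs.

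**Figure D5:**
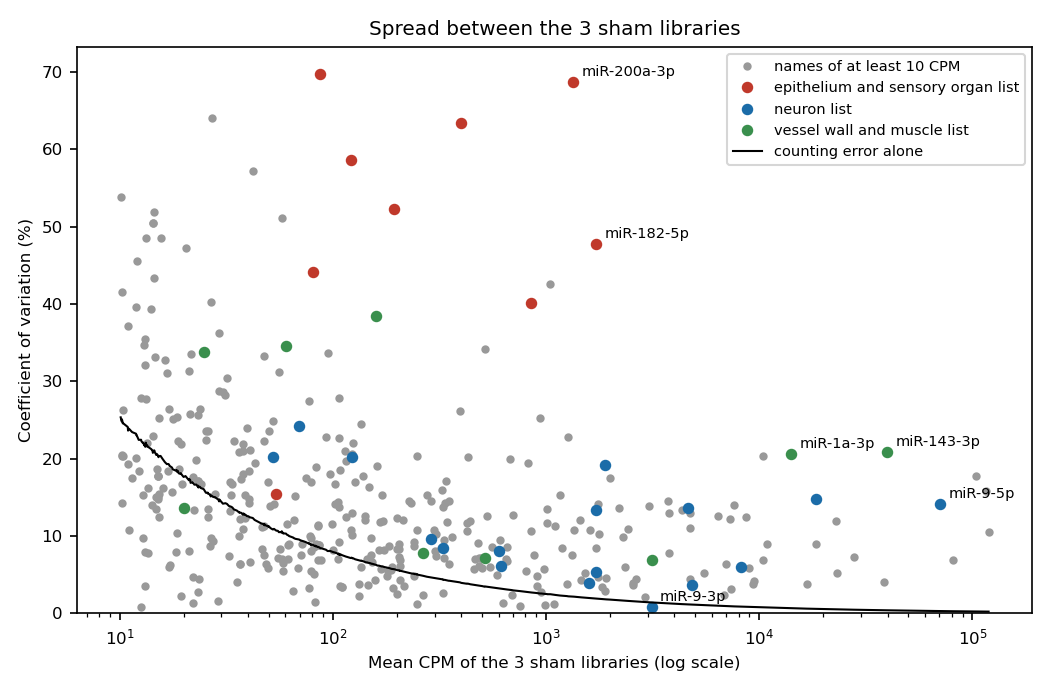
Coefficient of variation in percent over 3 sham libraries against mean CPM on a log axis for the 403 names of at least 10 CPM; the black line is the value counting error alone gives, and colours mark members of 5 lists. miR-200a-3p (68.8%) and miR-182-5p (47.8%) lie far above the cloud, and miR-9-3p (0.784%) lies below the line.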

How the data were processed

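The members and lists were chosen with earlier results of these data known. What the authors deposited are whole-number counts for each row of mature miRNAs, with no normalization. Per the labels' protocols, libraries came from 1 µg of total RNA and the NEBNext kit for small RNAs, and products of 135 to 155 bp (inserts of 15 to 35 nt) were selected; per the submitters' processing notes, cutadapt and Bowtie were used. Tool versions, mismatch settings, build and miRNA reference are not stated there. No per-sample column was left unmapped.

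Repeated rows were reduced to the row with the highest total, and counts were scaled to CPM of the library total over the 622 names. Names were matched by name to RefSeq mature sequences (GRCm38.p6), and host genes were read from GENCODE vM21; the counts carry no coordinates. Arms were paired by name, and 5p was tested against 3p with edgeR 4.0.16 (R 4.3.3; quasi-likelihood, library as a block because both arms are read in the same library, at least 10 counts over both arms in every library, Benjamini-Hochberg threshold 0.05), with DESeq2 1.42.0 as an alternative. Tested on data simulated for these 184 hairpins, the test found 30 of 31 hairpins with a 2-fold difference, 31 of 31 with 4-fold and 30 of 30 with 8-fold, and called 6 of 92 with none. The simulated dispersion was the same for all hairpins, and the arms differed by at most 8-fold. Stronger preferences, with few counts in the less abundant arm, were therefore not covered.

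Shares, families and spread are descriptions of 1 group, so no test was made. The CV that counting alone gives is about 1 over the square root of a name's counts. A CV from 3 libraries tends to fall below that value when counting is the only source of spread. The excess over counting is therefore understated. Intervals and limits cover counting alone, because reads copied by PCR do not count molecules. The names in the text are the 10 most abundant names, the 10 most abundant families with up to 4 members, the 5 most and 5 least variable names of at least 100 CPM, and the 5 hairpins of at least 100 CPM with the largest 3p, the largest 5p and the smallest preference, with the list members; any other name was chosen after its values were seen. The reading of repeated rows, filters, scaling, seed length, the model and each library were varied as alternatives; depth was not.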

Additional observations from a re-analysis of the deposited data

How the results depend on the processing

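Summing repeated rows moved the share of the 10 most abundant names from 64.3% to 70.7%, and listing every row as its own entry moved it to 60.4%. Summing also moved the miR-7 family from 14.7% to 17.7%, the miR-26 family from 12.6% to 16.1%, the miR-30 family from 12.3% to 8.81% and the 5p share from 67.6% to 73.4%, because names with several rows then count more. The 5p share was 71.8% over hairpins with both arms listed and 52.2% without the 5 most abundant names. The library pairs both arms by construction, and without that replicate block the test called 93 hairpins for 5p and 77 for 3p, as with it; 170 calls were shared. DESeq2 with the block called 90 and 75, and leaving out a library gave 90 to 93 for 5p and 75 to 77 for 3p. Uncalled log2 ratios changed sign when a library was left out: miR-376b ran from −0.21 to 0.0331, miR-3068 from −0.29 to 0.0458 and miR-361 from −0.0032 to 0.19. Of the other shares of single names and families under an alternative, 26 moved by more than the SD between libraries and 69 did not. The log2 ratios of the named hairpins kept their direction and their side of the threshold in 165 of 168 refits, though not their size: summed rows raised miR-26a from 11.43 to 12.43 and miR-7a from 10.38 to 11.38. An alternative with names that carry an arm label as the total was added after seeing the data. Depth limits names under about 2 CPM, where 3 counts or fewer were read, and arms with few counts. No paired analysis was possible between groups because only the sham group was analysed.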
